A study of Mus musculus with 13 samples.

Results

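The chromatin around Sox4, Sox9 and Sox11 was followed through 181 of the 300755 peaks that the study called in a single nucleus ATAC-seq (snATAC-seq) map of the mouse kidney. A peak was taken, whatever its values, when it overlapped the body of one of these genes or lay within 200 kb of its start in the mm10 build. This gave 65 peaks for Sox4, 50 for Sox9 and 66 for Sox11. snATAC-seq cuts and tags the DNA of single nuclei where it is not wrapped in nucleosomes, and the study recorded for each nucleus which peaks were open, so that each value below is the share of a cluster's nuclei, in percent, in which a peak was open. Nuclei came from whole mouse kidneys, with no treatment named, at postnatal day 0 (P0, 2 samples), day 21 (P21, 1 sample) and day 56 (P56, 2 samples), and P21 and P56 together formed the adult group. The labels say P0 while the protocol for the nuclei speaks of mice 1 day old. The methods name wild type C57BL/6 mice for the single cell RNA kidneys only. Genotype, strain, sex and the number of mice behind each snATAC sample were not given in the sources used here, so p-values measure the spread between these samples, which may be technical.

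Sox4, Sox9 and Sox11 encode transcription factors that bind DNA through the high mobility group box shared by the Sox family. Sox4 and Sox11 belong to the SoxC group and are known from nephron formation and from neural and mesenchymal progenitors, whereas Sox9, of the SoxE group, is known from cartilage, from the tips of the branching ureteric bud and from the repair of injured tubules. Nephrons of the mouse are still being formed from progenitors at birth and, by the study's account, until around day 21. Open chromatin at a start or a distal site is a measure of access to DNA and not of the RNA made there.

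The study's own clusters were used. From the nephron these were nephron progenitors (NP), podocytes, the convoluted (PCT) and straight (PST) proximal tubule, the loop of Henle (LOH), the distal convoluted tubule (DCT) and the connecting tubule (CNT). The collecting duct gave principal (PC) and intercalated (IC) cells, and the rest were endothelial cells, immune cells and 2 groups of stroma. They held 27652 of 28316 nuclei. Of 32 pairs of a marker gene and its cluster, 30 had the gene most open in its own cluster at P0 and 29 in the adult. Here PCT and PST counted as 1 cluster, as did the 2 groups of stroma, and Akr1c21 was listed for both PCT and PST. The exceptions at P0 were Trpv5 and Calb1 of the CNT, which were most open in the DCT. In the adult they were 3 of the 4 NP markers, Six2, Cited1 and Eya1, while Uncx was still most open in NP. The 195 adult nuclei labelled NP (52, 90 and 53 per sample) thus lacked much of the marker pattern of their name, and each adult NP value below rests on them. Nuclei of the P0 samples had a median of 6203 and 6737 open peaks, those of P21 4153, and those of P56 3371 and 6178. Within a cluster the median at P0 was 1.06 times (podocytes) to 3.00 times (endothelial) that of the adult, and so raw shares differ between stages with depth too. The tests were therefore run on counts of open nuclei scaled to the total of each cluster and sample. Shares after thinning each nucleus to 1000 open peaks are given for the start peaks, in part of the clusters. The fewest nuclei lay behind the DCT (108) and IC (96) at P0. Barcodes present in more than 1 sample numbered 477 and were kept as separate nuclei.

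The starts of the 3 genes lay in wide peaks. The Sox4 gene (ENSMUSG00000076431.4, chr13:28948919-28953713, minus strand) had its start in a peak at chr13:28952453-28954204, that of Sox9 (ENSMUSG00000000567.5, chr11:112782224-112787760, plus strand) lay in chr11:112781623-112783204, and that of Sox11 (ENSMUSG00000063632.6, chr12:27334264-27342574, minus strand) in chr12:27342283-27343996. The Sox9 start peak also covered the start of BC006965, a noncoding transcript that runs the other way, and the 2 cannot be told apart in it. Only 5 of the 181 peaks lay over the body of a member (3 at Sox4 and 1 each at Sox9 and Sox11), 123 were intergenic, 48 lay in an intron of another gene and 5 over an exon of one. Other peaks are named by the distance of their centre from the gene's start in kb, with a plus sign downstream and a minus sign upstream in the direction of transcription.

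The sequences of 8 distal peaks are shown because they stood high when 1 cluster was ranked against the others, although some were open in several clusters. For each gene they are the 2 peaks with the largest rise of 1 cluster over the others at P0 and, for Sox4 and Sox11, the 1 peak with the largest such rise in the adult, among named peaks whose highest cluster mean at that stage was at least 7%. The rise was of scaled log2 values, so the named cluster need not hold the highest raw share. At Sox11 +88.0 kb the raw share was higher in adult DCT than in adult LOH. Each line holds the central 300 bases on the plus strand of mm10, with matches to the Sox words ACAATG and ACAAAG, on either strand, in capitals.
Sox4 +171.4 kb, chr13:28782124-28782423, most above the other clusters in endothelial cells at P0: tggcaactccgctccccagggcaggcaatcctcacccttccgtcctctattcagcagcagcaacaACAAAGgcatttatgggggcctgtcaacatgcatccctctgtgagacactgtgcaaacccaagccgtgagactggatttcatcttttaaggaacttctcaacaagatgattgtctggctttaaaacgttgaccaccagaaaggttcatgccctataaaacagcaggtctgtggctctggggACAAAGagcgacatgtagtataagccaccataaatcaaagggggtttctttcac
Sox4 +21.8 kb, chr13:28931717-28932016, endothelial at P0: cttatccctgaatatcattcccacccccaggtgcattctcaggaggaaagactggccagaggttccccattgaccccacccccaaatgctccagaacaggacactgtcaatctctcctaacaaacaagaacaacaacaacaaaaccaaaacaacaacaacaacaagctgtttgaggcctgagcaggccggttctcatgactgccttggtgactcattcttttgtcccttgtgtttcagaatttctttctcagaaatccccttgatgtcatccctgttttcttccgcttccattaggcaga
Sox4 +20 kb, chr13:28933536-28933835, DCT in the adult: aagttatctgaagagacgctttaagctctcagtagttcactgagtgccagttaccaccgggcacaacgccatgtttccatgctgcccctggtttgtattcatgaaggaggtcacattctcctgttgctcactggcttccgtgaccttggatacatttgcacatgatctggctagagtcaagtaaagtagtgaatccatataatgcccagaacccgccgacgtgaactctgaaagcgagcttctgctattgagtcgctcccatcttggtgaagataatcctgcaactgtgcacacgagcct
Sox9 -70.3 kb, chr11:112711777-112712076, PC at P0: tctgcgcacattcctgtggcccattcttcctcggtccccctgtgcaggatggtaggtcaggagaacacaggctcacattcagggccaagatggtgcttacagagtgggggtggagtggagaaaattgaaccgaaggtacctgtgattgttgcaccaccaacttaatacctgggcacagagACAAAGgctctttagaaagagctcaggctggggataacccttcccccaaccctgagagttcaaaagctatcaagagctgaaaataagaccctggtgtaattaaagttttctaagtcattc
Sox9 -73.6 kb, chr11:112708482-112708781, PC at P0: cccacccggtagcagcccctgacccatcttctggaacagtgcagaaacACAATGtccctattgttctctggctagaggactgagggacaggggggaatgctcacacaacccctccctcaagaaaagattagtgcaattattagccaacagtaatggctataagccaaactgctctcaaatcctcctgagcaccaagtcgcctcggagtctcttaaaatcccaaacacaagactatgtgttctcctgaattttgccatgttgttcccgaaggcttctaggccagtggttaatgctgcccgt
Sox11 +14.1 kb, chr12:27328313-27328612, endothelial at P0: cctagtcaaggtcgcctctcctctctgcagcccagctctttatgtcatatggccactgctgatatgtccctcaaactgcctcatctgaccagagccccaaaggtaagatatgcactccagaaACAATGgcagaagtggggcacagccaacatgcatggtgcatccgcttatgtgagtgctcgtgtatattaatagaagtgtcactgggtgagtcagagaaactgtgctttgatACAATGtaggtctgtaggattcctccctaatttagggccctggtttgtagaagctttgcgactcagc
Sox11 -95.6 kb, chr12:27438023-27438322, PST at P0: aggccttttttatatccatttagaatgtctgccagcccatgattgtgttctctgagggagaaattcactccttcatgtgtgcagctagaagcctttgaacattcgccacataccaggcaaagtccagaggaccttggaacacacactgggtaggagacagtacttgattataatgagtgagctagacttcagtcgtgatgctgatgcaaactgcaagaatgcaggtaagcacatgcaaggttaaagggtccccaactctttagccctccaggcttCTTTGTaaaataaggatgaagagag
Sox11 +88.0 kb, chr12:27254424-27254723, LOH in the adult: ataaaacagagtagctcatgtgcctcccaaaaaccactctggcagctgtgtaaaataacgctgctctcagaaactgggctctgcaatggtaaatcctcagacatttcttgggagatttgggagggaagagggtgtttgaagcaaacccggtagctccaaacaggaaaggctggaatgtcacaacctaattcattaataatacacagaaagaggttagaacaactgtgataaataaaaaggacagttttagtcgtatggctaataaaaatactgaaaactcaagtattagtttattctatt

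The words are the core that Sox factors bind, and they are short enough to be common. At least 1 ACAATG stood in the central 300 bases of 32 of the 181 peaks, or 17.68%, against 15.02% of the 300693 peaks whose sequence could be read. ACAAAG stood in 47, or 25.97%, against 24.87%. The share for ACAAAG was 33.33% at Sox11, 23.08% at Sox4 and 20% at Sox9, and for ACAATG it was 16.67%, 16.92% and 20%. A pair of ACAATG and its complement CATTGT, in either order with a gap of 3 to 5 bases, the paired arrangement known for SOX9 in cartilage, stood in 0 of the 181 and in 0.03% of all peaks. Of the 8 printed peaks 5 held a word and 3 (Sox4 +21.8 and +20 kb and Sox11 +88.0 kb) held none in these bases. A match is a description of letters and not a site that is bound.

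The 250 bases before the RefSeq starts of Sox4 and Sox11, both of them inside the start peaks, are printed because the stage comparison turns on these peaks. They are from RefSeq (GRCm38.p6), read on the minus strand in the direction of transcription, with CCAAT, the box bound by the NF-Y factor, and its complement ATTGG in capitals.
Sox4, chr13:28953700-28953949: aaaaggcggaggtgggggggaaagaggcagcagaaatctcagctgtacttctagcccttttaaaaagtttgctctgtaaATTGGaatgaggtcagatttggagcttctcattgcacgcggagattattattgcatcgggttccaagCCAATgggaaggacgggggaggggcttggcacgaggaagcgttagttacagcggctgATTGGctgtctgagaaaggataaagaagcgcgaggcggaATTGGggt
Sox11, chr12:27342719-27342968: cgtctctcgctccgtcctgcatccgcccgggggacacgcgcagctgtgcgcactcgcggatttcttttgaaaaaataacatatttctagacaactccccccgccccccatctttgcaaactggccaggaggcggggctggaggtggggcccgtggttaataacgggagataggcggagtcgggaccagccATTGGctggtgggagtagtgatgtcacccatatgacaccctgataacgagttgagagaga
The Sox4 stretch held 4 such boxes and that of Sox11 held 1, and 33.8% of the 32851 promoters in the table held at least 1. The start peaks were rich in G and C over their central bases (61% at Sox4, 67% at Sox9 and 69% at Sox11), against 46.7% over all peaks.

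At P0 the Sox4 start was open in all 13 clusters, and 10 of them lay between 29.4 and 37.3%. The mean share was 37.3% ± 0.182 (SD, n = 2) in LOH, 35.5% ± 1.11 in stroma 2, 35.5% ± 0.436 in endothelial cells, 35.4% ± 0.505 in IC and 32.7% ± 8.32 in PST. It was 31.9% ± 4.95 in PC, 30.5% ± 1.53 in DCT, 29.9% ± 3.28 in stroma 1, 29.5% ± 5.48 in NP and 29.4% ± 5.99 in CNT. Lower levels stood in podocytes (21.5% ± 0.886), PCT (15.4% ± 3.78) and immune cells (13.1% ± 1.35). Among neighbours in this order, only LOH over stroma 2, CNT over podocytes and podocytes over PCT were apart in every sample. In thinned P0 nuclei the order changed. PST (6.32%) led LOH (5.97%), and NP (5.56%) stood above stroma 2 (4.87%) and endothelial cells (4.81%). Podocytes (4.71%) and immune cells (4.60%) stood above PC (4.17%) there, and PCT was lowest at 2.29%. The adult order began with IC (28.0% ± 9.16, n = 3), CNT (22.6% ± 4.86), PC (22.3% ± 10.1) and DCT (21% ± 10.1). LOH (19.5% ± 5.40), NP (17.7% ± 9.20), endothelial cells (17.0% ± 1.26), stroma 1 (16.3% ± 2.72) and stroma 2 (16.3% ± 1.63) followed. PCT (14.3% ± 2.35), immune cells (12.2% ± 2.93), podocytes (11.1% ± 2.92) and PST (10.8% ± 2.20) closed it, and the replicate spreads of neighbours overlapped along it. Thinned adult nuclei gave another order, led by PC (6.67%), LOH (5.93%) and NP (5.73%), with PST again last (1.22%).

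The Sox9 start was high in the distal nephron, the collecting duct and stroma 2 at P0. It stood at 22.3% ± 2.43 in PC, 18.0% ± 10.6 in DCT, 17.5% ± 2.31 in LOH, 17.2% ± 2.30 in CNT, 15.6% ± 1.48 in stroma 2 and 14.6% ± 0.505 in IC. Endothelial cells (13.6% ± 0.347), NP (10.4% ± 3.25) and stroma 1 (9.44% ± 2.49) came next, before PST (5.53% ± 1.01), podocytes (5.32% ± 1.07), PCT (1.90% ± 0.104) and immune cells (0.505% ± 0.714). Thinned P0 nuclei were highest in DCT (4.03%) and PC (3.44%), before stroma 2 (2.47%), LOH (2.38%) and CNT (1.88%). IC stood at 0.909% there, below endothelial cells (1.37%) and NP (1.20%). In the adult the DCT stood alone at 15.8% ± 7.44, and each of the other 12 clusters was below 4%. These were CNT (3.69% ± 1.45), PC (3.60% ± 1.46), IC (3.56% ± 0.782), stroma 2 (3.56% ± 1.04), LOH (2.73% ± 1.06) and endothelial cells (2.21% ± 1.62). NP (1.64% ± 0.459), stroma 1 (1.59% ± 1.44), PST (1.48% ± 0.942), podocytes (1.35% ± 1.17), immune cells (1.12% ± 1.20) and PCT (1.1% ± 0.113) were lower still. At P0 neighbours were apart in every sample only for IC over endothelial cells, endothelial cells over NP, stroma 1 over PST, podocytes over PCT and PCT over immune cells, and in the adult only for DCT over CNT.

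The Sox11 start was high at P0 in endothelial cells and NP and low in every adult cluster. At P0 it stood at 33.1% ± 0.221 in endothelial cells, 32.2% ± 4.77 in NP, 27.6% ± 1.90 in LOH, 27.4% ± 3.19 in CNT, 26.6% ± 1.94 in stroma 2, 26% ± 4.45 in PC and 24.6% ± 4.07 in stroma 1. DCT (19.1% ± 7.66), podocytes (14.5% ± 4.87), PST (13.5% ± 1.38) and IC (11.4% ± 9.09) followed, with PCT (5.00% ± 2.24) and immune cells (1.52% ± 2.14) last. The adult levels were 7.08% ± 4.58 in NP, 5.06% ± 3.44 in endothelial cells, 3.74% ± 0.494 in LOH, 3.41% ± 3.92 in podocytes, 3.39% ± 2.21 in PC and 3.24% ± 1.8 in IC. Those of CNT (2.66% ± 1.17), stroma 2 (2.57% ± 1.57), PST (2.45% ± 1.03), stroma 1 (1.30% ± 1.52), PCT (1.27% ± 0.433), DCT (1.13% ± 1.05) and immune cells (0.330% ± 0.572) lay below them. Neighbours in these orders overlapped in their samples except for PCT over immune cells at P0. In thinned P0 nuclei podocytes (3.89%) stood above PC (3.75%) and stroma 2 (3.57%). In thinned adult nuclei endothelial cells (1.82%) stood above NP (1.33%), and PC was lowest (0.130%).

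**Figure D1:**
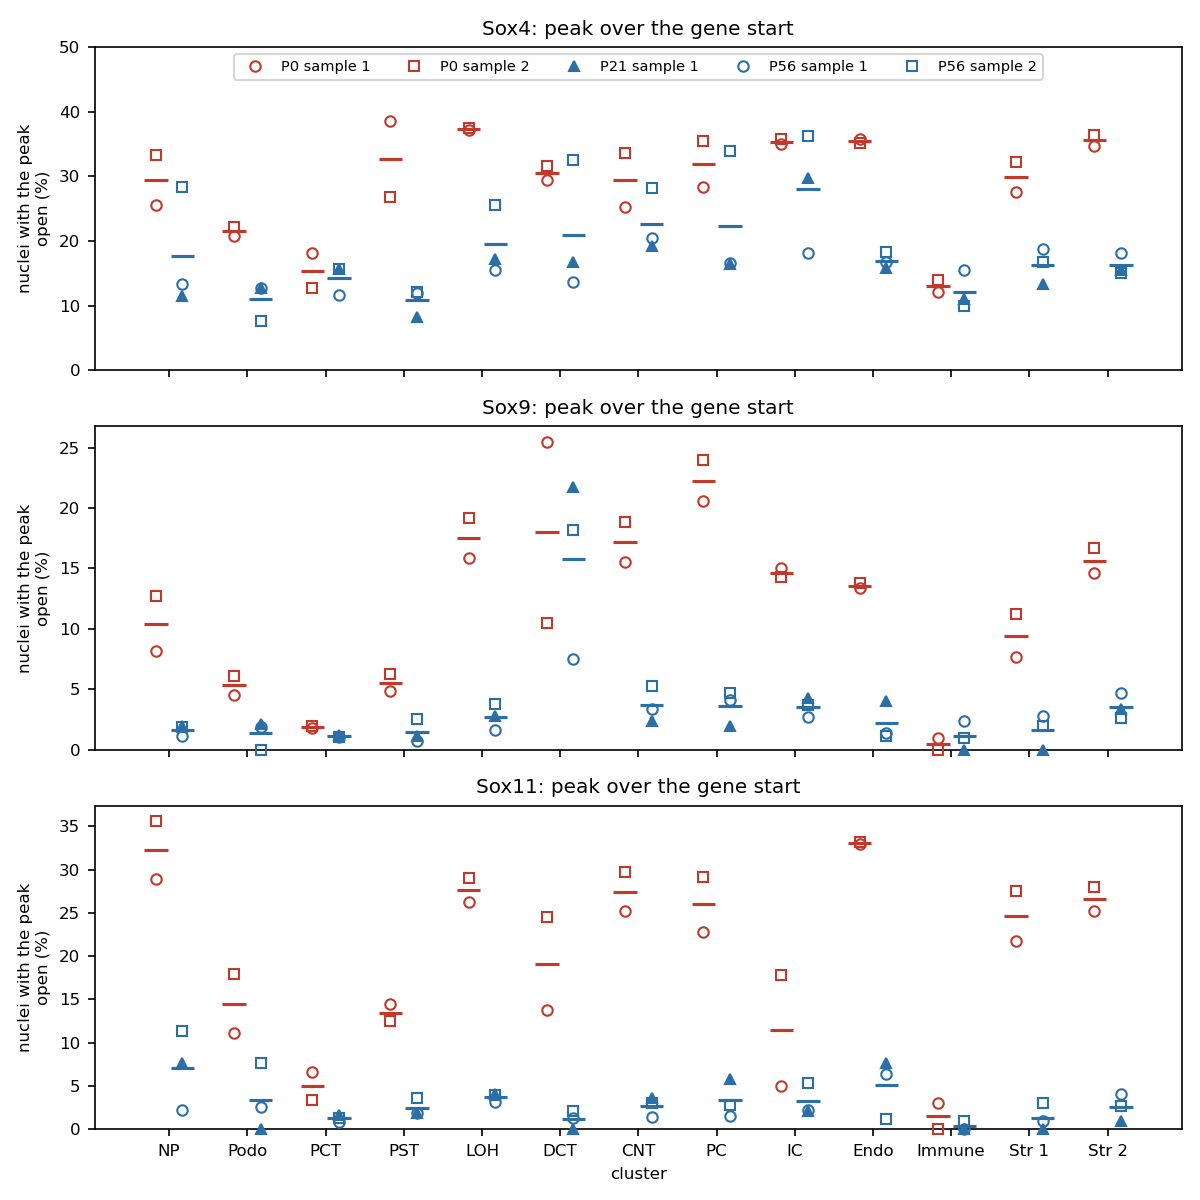
Share of nuclei (percent) in which the start peak of Sox4, Sox9 or Sox11 was open, by cluster, with 1 point per sample and a bar at the mean of the P0 or adult samples. Sox4 was open in 10.8 to 28.0% of adult nuclei by cluster mean, Sox9 was high in the adult only in DCT (15.8%), and Sox11 reached at most 7.08% in the adult.

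From P0 to adult, more peaks around the 3 genes lost accessibility than gained it, and many passed in neither direction. The comparison asks which cells still held these sites open in the adult group. The study places the end of nephron formation around day 21, the age of the P21 sample. Open nuclei were summed per cluster and sample and compared by edgeR's quasi-likelihood test, and a peak passed at a Benjamini-Hochberg adjusted p of at most 0.05 over all peaks tested in that cluster. A low-count filter admitted 79 of the 181 peaks in at least 1 cluster (33 of Sox4, 22 of Sox9, 24 of Sox11) and 102 in none, of which 32 were of Sox4, 28 of Sox9 and 42 of Sox11. Since the filter lets a peak in through the group in which it is high, counts of tested peaks do not stand for all 181. Of the 79, 53 were higher at P0 in at least 1 cluster (17, 17 and 19 of Sox4, Sox9 and Sox11) and 7 were higher in the adult (3, 1 and 3), with 2 in both. Over all 168381 peaks tested in some cluster, 34.8% were higher at P0 and 29.4% higher in the adult in at least 1.

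By cluster, the calls were read against the share of all tested peaks. In LOH 35 of 57 tested peaks were higher at P0, or 11 of 22 for Sox4, 14 of 17 for Sox9 and 10 of 18 for Sox11, where 29.9% of all tested peaks were, and 3 were higher in the adult against 24.4%. In PCT 16 of 35 were higher at P0 (17.6% of all peaks), 11 of them of Sox11, and 1 was higher in the adult (16.3%). In PST 5 of 11 were higher at P0 (6.99%) and 1 was higher in the adult (9.04%). The median log2 difference, P0 minus adult, over the members tested was 1.56 in LOH, 1.15 in PCT and 1.16 in PST, beside 0.11, -0.02 and -0.03 over all peaks tested. In PC 10 of 23 were higher at P0 against 16.8% of all peaks, and all 7 tested peaks of Sox9 were among them.

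In NP 4 of 5 were higher at P0 (20.4% of all peaks) and 1 was higher in the adult (19.2%). Stroma 2 had 12 of 19 (26.5%), stroma 1 had 1 of 4 (20.8%), endothelial cells 5 of 16 (16.6%) with 1 the other way (14.8%), and podocytes 1 of 4 (3.52%). CNT was near the background, with 3 of 16 (12.2%) higher at P0 and 1 (10.4%) higher in the adult, and its members' median log2 difference was -0.04. DCT had none of 7 higher at P0 (1.13% of all peaks) and 1 higher in the adult (2.6%), and its median was -0.21. In IC none of 5 passed by edgeR or by DESeq2, and 0 had an unadjusted p below 0.05, where 0% of all peaks were higher at P0 and 0.108% higher in the adult. No member was tested in immune cells. In sum there were 92 calls higher at P0 and 9 higher in the adult. Without P0 sample 1 the calls fell to 42 and 4, and without P0 sample 2 to 42 and 5, while every one of the 101 that could still be fitted kept its direction.

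The start peaks differed in how widely they closed. The Sox11 start passed in all 10 clusters where it was tested, the Sox9 start in 5 of 7 and the Sox4 start in 2 of 12, each higher at P0. In stroma 1 the Sox11 start was open in 21.7 and 27.5% of nuclei at P0 and in 0% at P21, 0.935 and 2.97% at P56, a log2 difference of 3.60 ± 0.46 (SE, edgeR adjusted p = 1.55e-10). In NP it was open in 28.9 and 35.6% at P0 and in 7.69, 2.22 and 11.3% of the adult samples, a difference of 2.19 (edgeR adjusted p = 1.68e-10). In both clusters all P0 samples lay above all adult samples. The smallest called difference of this peak was that of endothelial cells, 1.37 (edgeR adjusted p = 0.00171), where the shares were 32.9 and 33.3% at P0 and 7.69, 6.32 and 1.16% in the adult.

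At the Sox9 start PC and LOH fell and DCT did not pass. PC stood at 20.6 and 24.0% at P0 and at 1.94, 4.14 and 4.72% in the adult (log2 difference 1.98 ± 0.31, edgeR adjusted p = 6.67e-05). LOH stood at 15.9 and 19.2% and then at 2.79, 1.63 and 3.76% (1.58 ± 0.28, edgeR adjusted p = 3.49e-05). The groups did not overlap in either cluster. CNT (1.75), endothelial cells (1.52) and stroma 2 (1.1) were also called. In DCT the P0 samples were at 25.5 and 10.5% and the adult samples at 21.8, 7.49 and 18.2%, so that they overlapped, with a difference of -0.21 ± 0.42 (edgeR adjusted p = 0.893). PCT was the other tested cluster that did not pass (0.41 ± 0.44, edgeR, adjusted p = 0.509).

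The Sox4 start was called in PST and NP. In PST it was open in 38.6 and 26.8% of nuclei at P0 and in 8.27, 12 and 12.1% in the adult (1.27 ± 0.32, edgeR adjusted p = 0.0167). NP samples stood at 25.6 and 33.3% and at 11.5, 13.3 and 28.3% (0.61 ± 0.25, edgeR adjusted p = 0.0376). The groups were apart in PST and overlapped in NP. In the other 10 tested clusters the raw share was higher at P0 too, but the scaled difference did not pass. After thinning to 1000 open peaks per nucleus the median over clusters of the Sox4 start was 4.89% at P0 and 4.85% in the adult, where the raw medians were 30.5 and 17.0%. The Sox9 start went from 1.37 to 0.702% and the Sox11 start from 3.89 to 0.485% in thinned nuclei, where the raw medians went from 13.6 to 2.21% and from 24.6 to 2.66%.

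**Figure D2:**
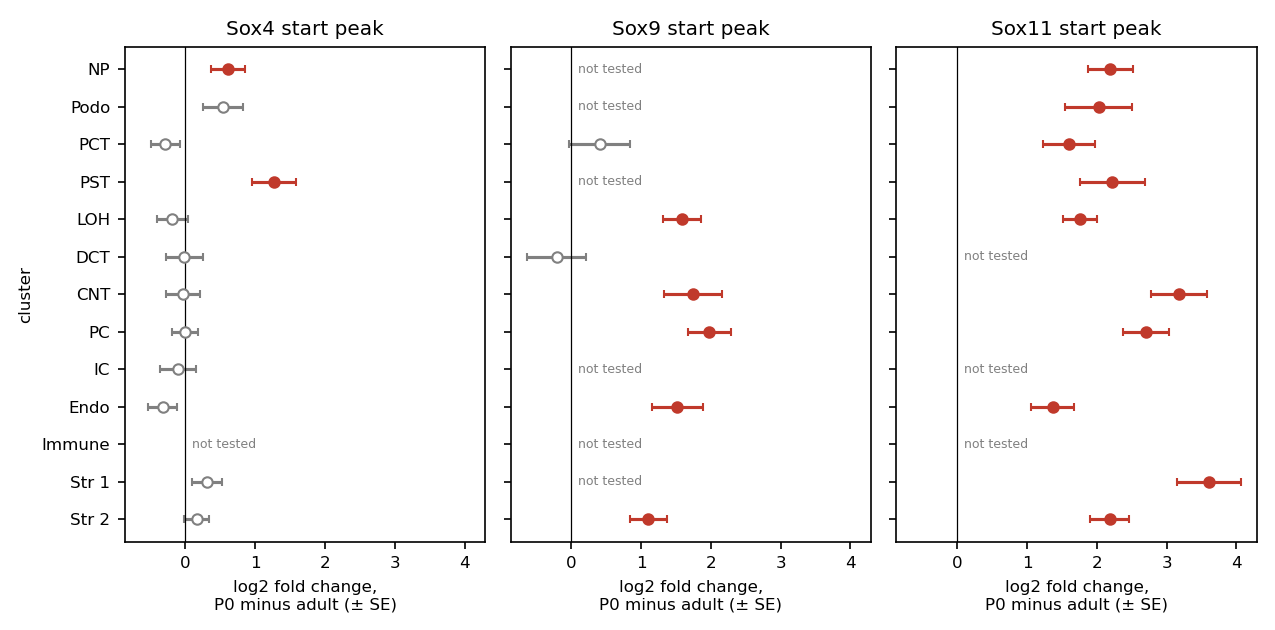
Log2 difference in accessibility, P0 minus adult, of the start peaks of Sox4, Sox9 and Sox11 by cluster (edgeR, scaled to the total of each sum, with bars of 1 SE), filled where the adjusted p was at most 0.05 and marked where a cluster was not tested. Sox11 lay above 1 in all 10 clusters tested, Sox9 near 0 in DCT (-0.21), and Sox4 near 0 in most clusters but at 1.27 in PST.

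Whether a stage difference was itself unequal between clusters was tested with an interaction term over the peaks that passed a filter on all sums. It passed for 29 of 48 members (13 of 23 for Sox4, 6 of 10 for Sox9 and 10 of 15 for Sox11), and for 47.3% of all peaks tested. The 3 start peaks were among them, with adjusted p of 7.4e-14 at Sox4, 4.65e-08 at Sox9 and 5.39e-05 at Sox11 (edgeR). The count was 11 without P0 sample 1, 14 without P0 sample 2 and 19 without P56 sample 2.

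Several widely open distal peaks of Sox4 lay downstream, in introns of the noncoding transcript 2610307P16Rik. The most distant of them, +195.7 kb (chr13:28757028-28758905), was open in 29.8 and 36.0% of NP at P0 and in 3.85, 6.67 and 24.5% of the adult samples, a log2 difference of 1.42 ± 0.28 (edgeR adjusted p = 1.62e-06). LOH went from 17.2 and 21.5% to 2.03, 1.44 and 2.76% (2.08 ± 0.28, edgeR adjusted p = 1.08e-06). In both clusters the P0 samples lay above the adult ones. PCT moved the other way, from 5.67 and 5.57% to 11.2, 9.11 and 13.1% (-1.36 ± 0.23, edgeR adjusted p = 0.000869), again without overlap. Podocytes held 20.5 and 25.7% at P0 and 27.7, 16.6 and 35.9% in the adult, overlapping and not called (-0.21, edgeR adjusted p = 0.674). The peak's interaction term had the lowest adjusted p of the named peaks (edgeR, 5.58e-43).

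The peak just upstream of Sox4, -4.9 kb (chr13:28957993-28959310), followed the start more closely. It was open in 27.9 and 36.1% of NP at P0 and in 13.5, 7.78 and 15.1% in the adult (1.31, edgeR adjusted p = 9.66e-06). Stroma 2 stood at 28.8 and 27.6% and at 8.25, 8.41 and 7.27% (0.87, edgeR adjusted p = 0.000784). PST stood at 34.9 and 25% and at 6.02, 7.61 and 13.1% (1.49, edgeR adjusted p = 0.00478). No adult sample reached a P0 sample in these 3 clusters. IC had the highest shares, 47.5 and 37.5% at P0 and 21.3, 14.9 and 27.1% in the adult, and did not pass the test (0.51, edgeR adjusted p = 0.515).

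Other Sox4 peaks were open mainly in a few cell types. The peak at +171.4 kb, printed above with 2 ACAAAG words, was open in 11.8 and 8.98% of endothelial nuclei at P0 and in 0.905, 2.53 and 0.696% in the adult (1.27 ± 0.39, edgeR adjusted p = 0.0143). All P0 samples lay above the adult ones. The peak at +21.8 kb stood in endothelial nuclei at 7.60 and 6.80% at P0 and at 4.07, 8.57 and 7.19% in the adult. There the raw shares overlapped, while the scaled difference was -1.38 ± 0.29 (edgeR adjusted p = 0.000837), higher in the adult. Here the P0 nuclei had 3.00 times as many open peaks, and the part of depth in this difference was not tested. Also higher in the adult was +20 kb, in DCT from 1.96 and 3.51% to 12.9, 9.12 and 16.4% (-2.69 ± 0.63, edgeR adjusted p = 0.0169). In CNT it went from 0.741 and 0.99% to 7.23, 3.40 and 7.89% (-2.98 ± 0.81, edgeR adjusted p = 0.0092) and in LOH from a mean of 0.856% to 3.42% (-3.11 ± 0.45, edgeR adjusted p = 3.34e-06). In all 3 clusters every adult sample lay above both P0 samples.

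Of the 50 Sox9 peaks 13 had their highest P0 share in PC, 8 in stroma 2, 6 in CNT and 5 each in stroma 1 and NP. This ranks raw shares, some of them low, as at -102.6 kb with 1.89% in PC. The same count over all peaks is not given here. Peaks -70.3 and -73.6 kb, both in an intron of BC006965, were open in PC at 6.35 and 9.14% and at 5.84 and 9.71% at P0. In the adult PC samples -70.3 kb stood at 0, 0 and 0.943% (3.84 ± 0.71, edgeR adjusted p = 0.000308). The peak at -73.6 kb was open in 0 of 581 adult PC nuclei, which allows a share of up to 0.516%, so that P0 was at least 14.8-fold higher, and in LOH it was at least 27.9-fold higher (3.57% against 0 of 2341 nuclei). These bounds are of raw shares, and P0 nuclei had 1.55 (PC) and 2.09 (LOH) times as many open peaks as adult ones. The groups did not overlap at either peak. Downstream, +90.6 kb was open in 15.7 and 16.0% of PC at P0 and in 2.91, 2.63 and 4.72% in the adult (1.70, edgeR adjusted p = 0.000586), and +92.3 kb in 14.0 and 14.6% and in 3.88, 4.51 and 5.19% (1.11, edgeR adjusted p = 0.0133). CNT, by contrast, held +90.6 kb at 7.41 and 10.9% at P0 and at 8.43, 7.14 and 7.89% in the adult, with overlap.

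At 2 distal Sox9 peaks, +29.1 and -193.7 kb, the DCT samples overlapped between stages. At +29.1 kb DCT stood at 19.6 and 19.3% at P0 and at 23.8, 15.6 and 24.2% in the adult (-0.60 ± 0.34, edgeR adjusted p = 0.430). PC fell at this peak from 9.39 and 12.9% to 0.971, 2.63 and 1.89% (1.90, edgeR adjusted p = 0.00213), and PCT from 4.75 and 5.03% to 1.1, 1.91 and 0.827% (1.46, edgeR adjusted p = 0.0283). LOH (0.09, edgeR adjusted p = 0.768) and CNT (-0.38, edgeR adjusted p = 0.544) were not called either. The stages overlapped in DCT and not in PC or PCT. At -193.7 kb LOH fell from 5.51 and 7.52% to 0.508, 0.384 and 0.884% (2.28 ± 0.42, edgeR adjusted p = 6.78e-05), whereas DCT stood at 5.88 and 0% at P0 and at 5.94, 4.23 and 6.91% in the adult. The low-count filter kept DCT out of the test at this peak, and the DCT shares at P0 were of 51 and 57 nuclei. The single Sox9 call higher in the adult was +62.5 kb, open in 0 of 195 PST nuclei at P0, which allows up to 1.54%, and in 4.14, 7.76 and 4.36% in the adult, at least 3.64-fold higher in raw shares (edgeR adjusted p = 0.0222), where P0 nuclei had 1.20 times as many open peaks. In stroma 2 the same peak went from 5.12 and 4.37% to 1.94, 0.935 and 0.291% (1.41, edgeR adjusted p = 0.0174).

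The distal peaks of Sox11 differed in the cells that held them open. The peak at +14.1 kb, with 2 ACAATG words in the printed bases, was open in 14.9 and 14.3% of endothelial nuclei at P0 and in 1.36, 0.562 and 1.16% in the adult (2.63 ± 0.39, edgeR adjusted p = 2.77e-05). At +37.4 kb (chr12:27304781-27305507) NP stood at 12.9 and 14.1% and at 0, 1.11 and 1.89%, and the low-count filter kept this peak out of the test there. At -150.0 kb (chr12:27492280-27492951) PCT went from 7.31 and 4.67% to 0.322, 0.122 and 0.087% (4.73 ± 0.50, edgeR adjusted p = 5.16e-05). At each of these 3 peaks all P0 samples lay above all adult samples. The PST shares at -150.0 kb were 12 and 9.82% and then 0.752, 0.913 and 2.42% (2.73, edgeR adjusted p = 0.00444). At -95.6 kb PST held 19.3 and 16.1% at P0 and 3.38, 8.83 and 15.6% in the adult and was not called, while PCT was (8.78 and 5.21% against 1.55, 2.97 and 1.96%; 1.20, edgeR, adjusted p = 0.0295). P56 sample 2 was the adult sample closest to P0 in PST. Its PST nuclei had a median of 12173 open peaks, where those of P21 had 5398.5 and those of P56 sample 1 had 5956.

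Of the 3 Sox11 peaks called higher in the adult, +33.2 kb in LOH was open in 1.24 and 1.34% of nuclei at the 2 stages and was below the named peaks in level. At +88.0 kb LOH stood at 6.77 and 6.29% at P0 and at 7.87, 11 and 12.7% in the adult (-1.88 ± 0.28, edgeR adjusted p = 5.27e-06). At -165.6 kb NP stood at 2.03 and 2.99% and at 3.85, 11.1 and 18.9% (-2.35 ± 0.46, edgeR adjusted p = 2.33e-06). All adult samples were above the P0 samples at both, at -165.6 kb among the adult nuclei described above that lacked most NP markers. CNT and PC held -165.6 kb at both stages, with 17.0 and 29.7% in CNT at P0 and 21.7, 16.7 and 18.0% in the adult, and 18.8 and 21.1% in PC against 11.7, 16.9 and 24.5%. The stages overlapped there. At +88.0 kb LOH was not the most open adult cluster. Adult DCT stood at 3.93 times the mean raw share of the other clusters, and adult LOH at 3.14 times.

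Some of the stage calls given above were lost in another fit, each with its direction kept. DESeq2 did not call the Sox4 start in NP, the Sox9 or Sox11 start in endothelial cells, Sox4 +171.4 kb in endothelial cells, Sox4 +20 kb in DCT or CNT, Sox9 +92.3 kb in PC or Sox9 +62.5 kb in stroma 2. When either P0 sample was left out, edgeR no longer called the Sox4 start or -4.9 kb in PST, Sox4 +171.4 kb in endothelial cells, Sox4 +20 kb in DCT or CNT, the Sox9 start in CNT, Sox9 +29.1 kb in PCT, +92.3 kb in PC or +62.5 kb in PST, and Sox11 -150.0 kb in PST or -95.6 kb in PCT. Sox4 +21.8 kb in endothelial cells was lost without P0 sample 1. The Sox9 start in endothelial cells, Sox9 -70.3 and +29.1 kb in PC and Sox9 +62.5 kb in stroma 2 were lost without P0 sample 2. Leaving out P56 sample 2 ended the calls of the Sox4 start in NP, Sox4 +171.4 kb in endothelial cells, Sox9 +29.1 kb in PC and PCT, +92.3 kb in PC and +62.5 kb in stroma 2, and Sox11 -95.6 kb in PCT, and leaving out the P21 sample ended the first 2 of these.

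**Figure D3:**
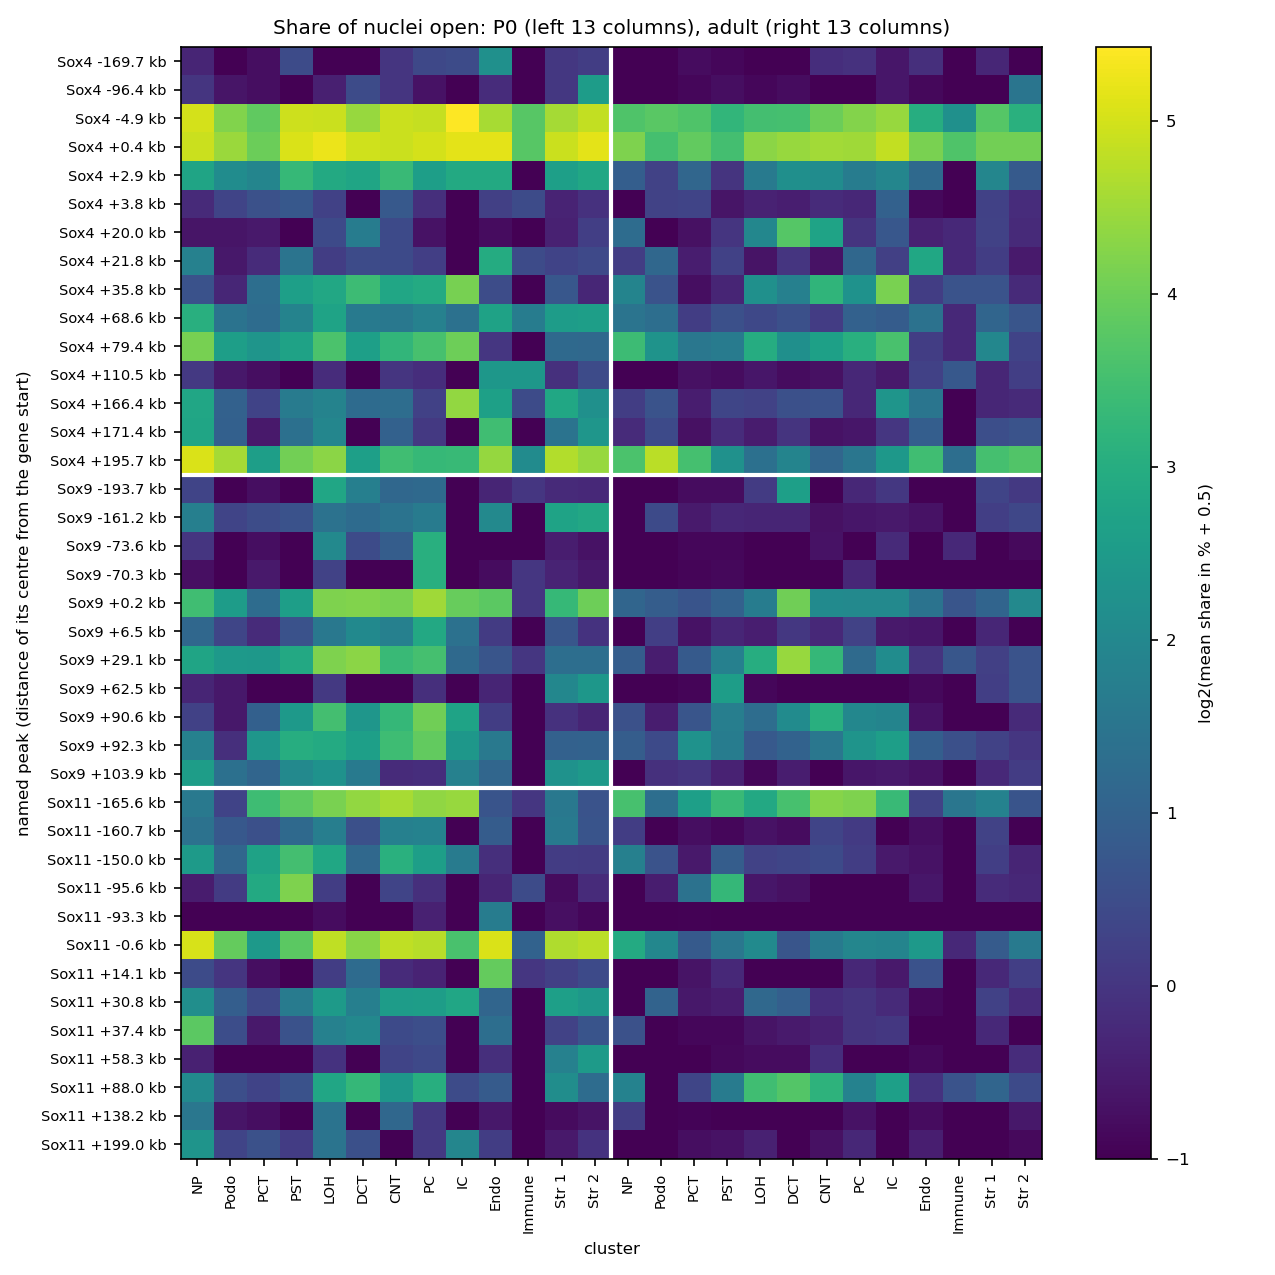
Mean share of open nuclei of the named peaks of Sox4, Sox9 and Sox11 (rows) by cluster (columns), as log2(percent + 0.5) in colour, with P0 in the left 13 columns and the adult in the right 13. Sox9 -70.3 and -73.6 kb were open in PC at P0 and near 0 in the adult, while Sox4 +20 kb was open mainly in adult DCT and CNT.

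Along each locus the highest shares were those of the starts and a few distal sites. Of the 181 peaks, 56 reached 5% in some cluster and stage (23, 16 and 17 of Sox4, Sox9 and Sox11) and 7 stayed below 1%. The highest cluster mean of a peak was larger at P0 than in the adult for 164 of the 181 (53 of 65, 47 of 50 and 64 of 66), with medians of 3.14 against 1.21% at Sox4, 2.68 against 0.634% at Sox9 and 2.44 against 0.709% at Sox11. These are raw shares and carry the deeper P0 nuclei with them. The same count over all peaks is not given here, so it is no trait of these loci.

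**Figure D4:**
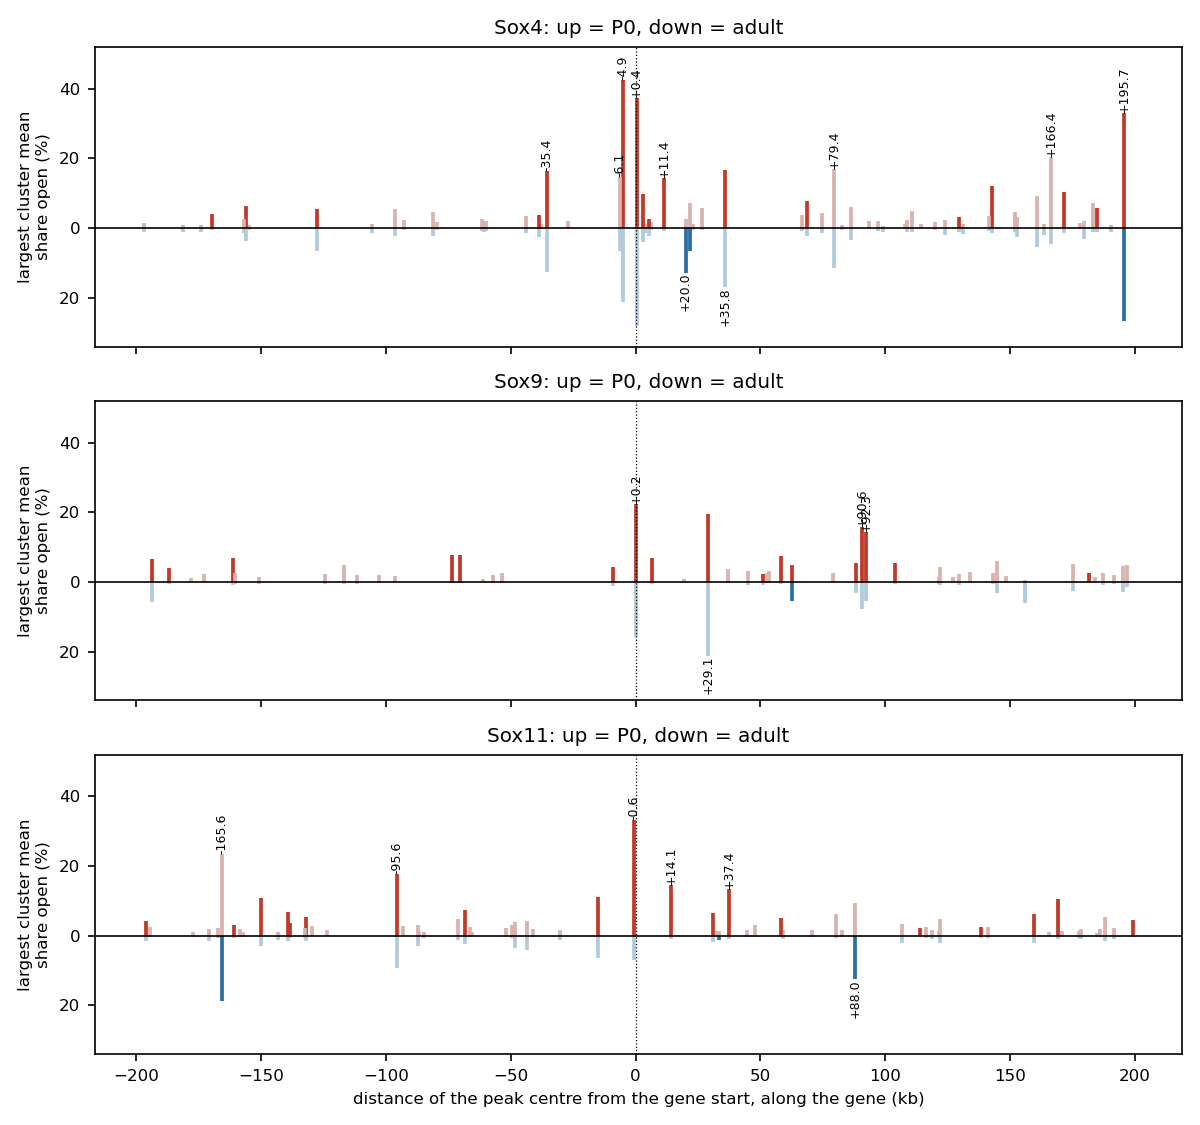
Highest cluster mean share (percent of nuclei) of each peak by its distance from the gene start (kb, positive downstream), P0 drawn upward and adult downward, for Sox4, Sox9 and Sox11, in dark colours where a peak was called higher at that stage in at least 1 cluster and with the distance printed at peaks that reached 12%. The widest open distal sites were Sox4 -4.9 and +195.7 kb. In raw shares, which carry the deeper P0 nuclei with them, 164 of the 181 peaks stood higher at P0.

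The nephron progenitors were set against 3 epithelia that form from them, within P0 and with the sample as a block. Clusters had been made from the same nuclei, so that these adjusted p rank peaks and are no independent test. Against PCT 55 of 68 tested members were higher in NP, where 38.7% of all peaks were, and 8 were lower (35.7%), but DESeq2 called 37 higher and 4 lower, and thinned nuclei gave 7 and 0. By edgeR the higher ones were 22 of 24 peaks of Sox4, 11 of 14 of Sox9 and 22 of 30 of Sox11, and the median log2 difference was 2.20 against 0.10 over all peaks. Against podocytes 24 of 56 were higher (24.6% of all peaks) and 4 lower (22.2%), the 4 all of Sox11, with a median of 1.11 against 0.10, but DESeq2 called 5 higher and 2 lower, and thinned nuclei gave 2 and 0. Against LOH the members were divided, with 30 of 86 higher (28.3%) and 27 lower (27.6%), a median of 0.27 against -0.02, and DESeq2 called 14 higher and 18 lower, and thinned nuclei gave 4 and 2. For Sox9 more peaks were lower in NP than in LOH (12) than higher (6). The numbers of members tested after thinning, which removes most counts, are not given here. Of the named calls of these comparisons 17 had a thinned value, and all 17 kept direction, 13 of them past the threshold.

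Sox11 +37.4 kb, at 12.9 and 14.1% in NP, was above PCT by a log2 difference of 5.97 ± 0.43 (edgeR adjusted p = 1.26e-41), above podocytes by 3.26 and above LOH by 2.20. The Sox11 start was above PCT by 2.53, podocytes by 0.49 and LOH by 0.27, each called by edgeR, the last 2 not by DESeq2. The Sox4 start was above PCT by 0.77 (edgeR adjusted p = 5.45e-10), below LOH at -0.29 (edgeR adjusted p = 0.00256, not called by DESeq2) and not called against podocytes (-0.18, edgeR adjusted p = 0.278). Sox4 +195.7 kb was above PCT by 2.39 and LOH by 0.82 and was not called against podocytes (-0.14, edgeR adjusted p = 0.406). The Sox9 start was above PCT by 2.25 but below LOH at -0.70 (edgeR adjusted p = 1.82e-06), and Sox9 +90.6 kb was below LOH by more, at -3.89 (edgeR adjusted p = 2.93e-26). Of the Sox11 peaks -95.6 kb was below PCT at -5.16 (edgeR adjusted p = 2.04e-26).

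**Figure D5:**
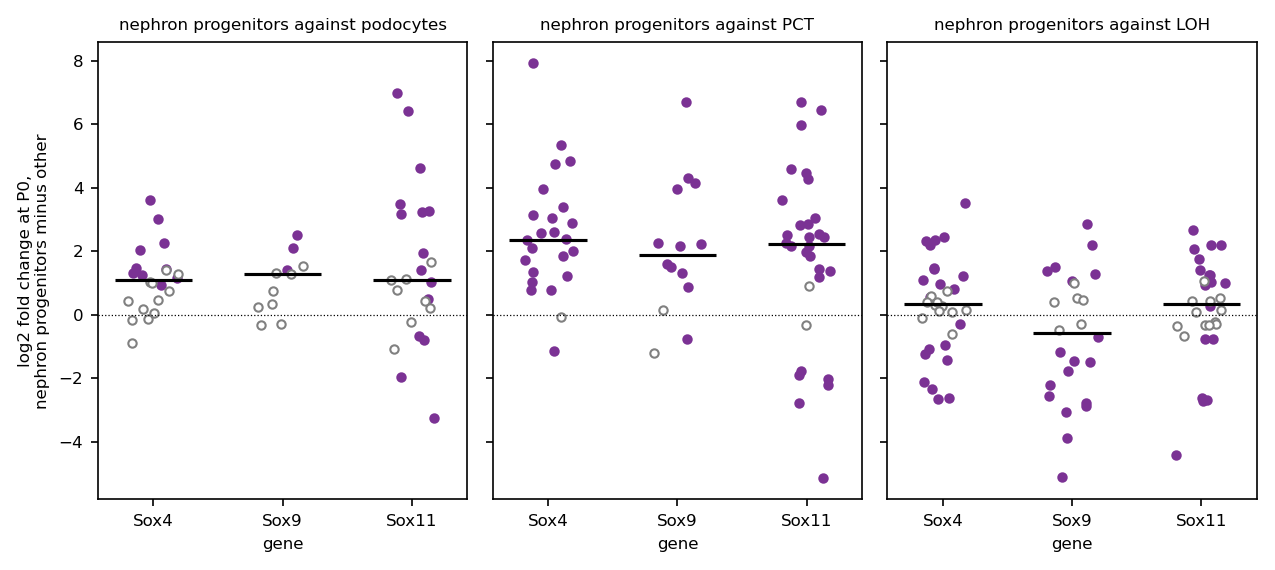
Log2 difference in accessibility at P0, nephron progenitors minus podocytes, PCT or LOH, of each tested peak of Sox4, Sox9 and Sox11 (edgeR with the sample as a block), filled where the adjusted p was at most 0.05 and with a line at each gene's median. Most peaks lay above 0 against PCT (median 2.20) and on both sides of 0 against LOH (median 0.27).

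Each cluster was also set against the mean of the other 12 at each stage, again as a ranking. The fit compared scaled log2 values, so a cluster called above the others could have a raw share below their mean. At P0, 35 peaks of Sox4, 24 of Sox9 and 32 of Sox11 were tested. NP were above the others at 22, 8 and 19 of them (29.8% of all peaks), LOH at 19, 14 and 18 (27.2%), and PC at 10, 14 and 13 (23.2%). Stroma 2 was above them at 18, 11 and 7 (39.3%) and endothelial cells at 11, 3 and 5 (28.1%). The highest shares of a gene's peaks were thus 22 of 35 for Sox4 and 19 of 32 for Sox11, both in NP, and 14 of 24 for Sox9, in LOH and in PC. The median of all peaks in this contrast was itself above 0 in LOH (0.58), stroma 2 (0.45), NP (0.41) and PC (0.36). It was also above 0 in stroma 1 (0.35), PCT (0.27), endothelial cells (0.26), CNT (0.25) and podocytes (0.15). It was below 0 in PST (-0.12), DCT (-0.27), IC (-0.37) and immune cells (-2.44). PCT was above the others at 0, 1 and 6 of them (27.6%) and below them at 6, 1 and 1 (3.22%). In the adult fewer peaks were tested (11, 5 and 3), and LOH was above the others at 7, 3 and 3 (32% of all peaks), DCT at 5, 4 and 2 (19.4%), CNT at 5, 2 and 2 (20.5%) and IC at 5, 2 and 2 (16.8%). At Sox11 -165.6 kb, for example, adult LOH was called above the others at a raw share of 6.86%, where the mean of the others was 7.79%. Leaving out P56 sample 1 lowered the adult calls above the other clusters to the count given in the closing section.

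Some of the highest peaks of this ranking follow. Folds are of raw shares over the mean share of the others. The log2 differences are the scaled contrasts of the fit, so the 2 measures are unlike. Sox11 -93.3 kb, open in 2.77% of endothelial cells at P0, was 69.6 times as open there as in the mean of the others (log2 difference 6.07). That mean was 0.0398%, near the floor, so the size of this fold is imprecise. Sox9 -70.3 kb was 46.0 times as open in PC at P0 as in the mean of the others (log2 difference 6.01), Sox11 +14.1 kb 26.4 times in endothelial cells (5.64), and Sox4 -96.4 kb 19.3 times in stroma 2 (5.05), at 5.19 and 5.59%. In the adult Sox9 -193.7 kb was 23.6 times as open in DCT (5.71), Sox4 +21.8 kb 10.5 times in endothelial cells (4.90), and in DCT Sox4 +20 kb was 9.95 times (4.51) and Sox9 +29.1 kb 8.05 times as open (3.67). At the Sox9 start the adult DCT mean of 15.8% stood against 2.30% over the others (2.75 ± 0.27, edgeR adjusted p = 1.51e-20). Each of these values chose the cluster it is given for and is a description.

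How alike the peaks of a gene were was described by Pearson's r over the 26 cluster and stage means of log2(share + 0.5), points that share libraries, depth and nuclei of common origin. The Sox4 start was most like +2.9 kb (0.888), in the gene's exon and also over the lincRNA Gm26735, and -4.9 kb (0.852), and least like the adult DCT peak +20 kb among those given here (0.0653). For the Sox9 start the nearest were +6.5 kb (0.799) and +58.4 kb (0.724). For the Sox11 start they were +30.8 kb (0.794), +159.5 kb (0.764) and +37.4 kb (0.740), while -95.6 kb of the proximal tubule stood at -0.0122. Between the starts r was 0.880 for Sox4 and Sox9, 0.805 for Sox4 and Sox11 and 0.769 for Sox9 and Sox11. Among 18779 genes with a start peak open in at least 5% of some cluster, the starts most like that of Sox4 were those of Dbn1 (0.912) and Ddah2 (0.907). Those most like Sox9, apart from BC006965 in the same peak, were Mpp3 (0.899) and Dbn1 (0.895), and those most like Sox11 were Fam181b and Gm9934 in 1 shared peak (0.947) and Spock2 (0.944).

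Gene activity, the number of open peaks over a gene body and the 2 kb before it, counts the start peaks too and is no separate evidence. Between P0 and adult Sox11 passed in all 10 clusters tested, Sox9 in LOH (1.72), CNT (1.52), PC (1.95), endothelial cells (1.55) and stroma 2 (1.14), and Sox4 in PST (1.45 ± 0.35, edgeR adjusted p = 0.0204). All 16 calls were higher at P0, and they fell to 8 without P0 sample 1 and to 10 without P0 sample 2. Thinned nuclei left fewer still, as counted in the closing section. Over all genes 44.4% were higher at P0 and 38.7% higher in the adult in at least 1 cluster.

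Genes of the same family and of the pathways around it were read in the same fit, from lists chosen with earlier results of these data known. Pairs of a gene and a cluster were called higher at P0 in 14.2% of all pairs tested and higher in the adult in 11.1%. Of 17 other Sox genes 14 were tested and 13 were higher at P0 in at least 1 cluster, in 34.5% of pairs against 8.85% the other way. Sox17, known from endothelium, passed in 6 clusters (log2 differences 0.98 to 2.42) and Sox8, the SoxE relative of Sox9, in 4 (1.36 to 1.89). Of 11 genes of Ret, Fgf and Wnt signals, which drive the branching of the ureteric bud and the induction of nephrons, 8 were higher at P0 in at least 1 cluster (33.3% of pairs; 10.1% in the adult). Gdnf, the ligand of Ret, passed in 7 clusters (1.35 to 2.79) and Ret itself in 6 (0.58 to 2.03), whereas Wnt9b, the signal of the collecting duct to progenitors, was higher in the adult in 6 (-2.57 to -0.62).

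The 10 cartilage targets of SOX9 were all higher at P0 in at least 1 cluster (40% of pairs; 10% in the adult), among them Col2a1 (6 clusters, 0.71 to 2.13) and Col9a1 (6 clusters, 1.35 to 3.99), both collagen chains of cartilage. Of these 10, 3 were also higher in the adult in at least 1 other cluster, as Comp, a protein of the cartilage matrix, was in LOH (-1.08). Of the 4 SoxC targets 3 were higher at P0 (33.3% of pairs, 0% in the adult), led by Tead2, a transcription factor and partner of Yap, in 8 clusters (1.05 to 2.91). Of 16 genes of nephron progenitors and early nephrons 14 were (37.3% of pairs; 10.7% in the adult). Eya1, the partner of Six2 in progenitors, passed in 7 clusters (0.76 to 2.22) and Wt1, of progenitors and podocytes, in 7 (0.91 to 3.95), while Pax8 was higher in the adult in 5 (-1.53 to -0.47). Of 12 genes of tubule injury and repair 9 were (36.6% of pairs; 10.9% in the adult). Cd44, a receptor of hyaluronan, passed in 6 clusters (1.38 to 2.46), and Spp1, which encodes osteopontin, was higher in the adult in 5 (-1.74 to -0.81). In each list the share of pairs higher at P0 stood above that of all genes, while the share higher in the adult was at or below the 11.1% of all genes, and Sox5 and Sox6 count in 2 lists. Because the lists were chosen with earlier results of these data known, this is a description and no test of the lists. Each gene counted once, the lists had 215 calls higher at P0 and 54 higher in the adult, and these fell to 91 and 23 without P0 sample 1 and to 113 and 24 without P0 sample 2. DESeq2 gave fewer list calls at P0, and thinned nuclei gave fewer at both stages, as counted in the closing section.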

How the data were processed

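The nuclei of whole kidneys were processed by the authors with Cell Ranger ATAC 1.1.0 on mm10, filtered on fragments, mitochondrial reads and promoter share, clustered with SnapATAC, and used for MACS2 peak calling on the pooled nuclei of each cell type before merging. The deposited values are counts per nucleus and peak, set by the authors to 1 where open and 0 otherwise, so a share of open nuclei carries no more than 1 read per nucleus and depends on depth. No doublet caller was run here, and beyond an upper limit on fragments no removal of doublets by the authors is given in the sources used here. Intervals and limits for 0 (3 counts) cover counting error only.

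Here the open nuclei of 65 cluster and sample sums (at least 39 nuclei each) were tested with edgeR 4.0.16 (quasi-likelihood, TMM, filterByExpr at 10 and 15 counts, adjusted p at most 0.05 by Benjamini-Hochberg over all peaks or genes of a comparison), for P0 against adult within a cluster, NP against 3 clusters at P0 with the sample as a block, each cluster against the mean of the other 12, and stage by cluster interaction. SE was the log2 difference over the root of F. GENCODE M21 genes, mm10 bases and RefSeq promoters gave positions and sequences. The scripts were tested on simulated data. The sequence of 1 Sox9 peak and 1 gene among those most like the members are not reported here. RNA samples of the series and the bulk libraries were not used here.

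The genes, windows and lists were chosen with earlier results of these data known. Named peaks were those over a member's body, the 5 widest open, the 5 called in most clusters and the 3 most above the other clusters at each stage, per gene. Same-numbered samples did not deviate together (correlation -0.0259 to 0.150, median 0.0584), so numbers were not taken as pairs.

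Alternatives were DESeq2 1.42.0, its size factors, no filter, thinning of nuclei to 1000 open peaks (811 shallower nuclei left out), a replicate block, a minimum of 50 nuclei, other windows, and each sample left out. A fit without trended dispersions, and the block for gene activity, were added after seeing the data.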

Additional observations from a re-analysis of the deposited data

Results flagged for a closer look

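The stage difference of several peaks was unequal between clusters by the interaction test (edgeR, Benjamini-Hochberg adjusted p over all peaks tested). Among the starts the adjusted p was 7.4e-14 at Sox4, 4.65e-08 at Sox9 and 5.39e-05 at Sox11. At Sox4 it was 5.58e-43 for +195.7 kb, which was higher at P0 in NP and LOH and higher in the adult in PCT, and 8.17e-14 for -4.9 kb. It was 5.26e-09 for +35.8 kb, which was open in 16.0, 14.9 and 20.2% of adult IC and at a mean of 2.00% in PCT at P0 against 0.0855% in the adult. Further Sox4 peaks were +2.9 kb (0.00292), +166.4 kb (0.00459), +21.8 kb (0.0157) and +79.4 kb (0.0265).

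At Sox9 the adjusted p was 1e-09 for +29.1 kb, where PC and PCT were called between stages and DCT, LOH and CNT were not, 2.6e-05 for -193.7 kb, 0.000454 for +92.3 kb and 0.000686 for +90.6 kb. At Sox11 it was 3.51e-10 for +88.0 kb, 0.00163 for +30.8 kb, 0.00277 for -150.0 kb and 0.0135 for +14.1 kb.

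The start peaks were also read in 664 nuclei that the study kept outside its 13 clusters, in groups it labelled NP_LOH (218 nuclei in 4 samples) and PT_out (446 nuclei in 5 samples), which entered no comparison. The shares below pool P0 and adult samples of unequal depth. The Sox4 start was open in 15.6% of NP_LOH (95% Wilson interval 11.4 to 21) and 26.5% of PT_out (22.6 to 30.7). The Sox9 start was open in 3.67% (1.87 to 7.07) and 4.93% (3.28 to 7.36), and the Sox11 start in 7.80% (4.93 to 12.1) and 7.17% (5.13 to 9.95).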

How the results depend on the processing

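Of 314 named results, 1535 alternative values were computed: 1339 kept direction and side of the threshold, 194 kept direction but no longer passed (40 of 125 by DESeq2, 25 of 62 without P0 sample 1 and 31 of 68 without P0 sample 2), and 2 reversed, the Sox4 start in adult DCT against the other clusters without P56 sample 2 (-0.051, and up to 0.61 without another sample) and Sox4 -4.9 kb in endothelial cells at P0 with DESeq2 size factors (-0.072). Of the 101 stage calls 68 were also made by DESeq2, 96 with the replicate block and 94 without trended dispersions. Without a filter there were 212 stage calls toward P0 and 14 toward the adult. Thinning, which left values for 12 of the 101, gave 10 and 0, with 7 of the 12 kept.

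Leaving out 1 sample gave 42 to 130 stage calls higher at P0 and 4 to 13 in the adult, 11 to 27 members with interaction, 35 to 82 adult calls above the other clusters (66 with all samples, 35 without P56 sample 1), and, for gene activity, 8 to 18 calls of the 3 genes, 91 to 239 list calls at P0 and 23 to 77 in the adult. At P0 the cluster contrasts could not be repeated without a sample, since 1 would remain.

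For NP against podocytes DESeq2 gave 5 higher and 2 lower, and thinning 2 and 0. Against PCT DESeq2 gave 4 lower, and thinning 7 higher and 0 lower. Against LOH DESeq2 gave 14 higher, and thinning 4 higher and 2 lower. List calls at P0 were 141 by DESeq2, and 58 after thinning, with 15 in the adult, and thinning left 4 calls of the 3 genes. Windows of 100 and 50 kb held 86 and 39 peaks, and ACAAAG stood in 74 whole peaks, or 40.88%, beside 35.68% of all whole peaks. Thinned medians of the starts were 4.89 and 4.85% (Sox4, P0 and adult), 1.37 and 0.702% (Sox9) and 3.89 and 0.485% (Sox11). The cause of these shifts was not tested, and the numbers of pair, activity and list tests left after thinning are not given here. The replicate block, or its absence where it was in the fit, moved no count of calls by over 1.5 times.

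The 102 peaks that the low-count filter kept out of every cluster have no stage test here, and the 2 P0 samples limit the precision of the rest.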
